A study of Mus musculus with 18 samples.

Results

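Gm48795, Ccn5, Tph2, Gpr50, Mfsd7a and Car12 are 6 genes, of 33440 for which reads were summed, that were picked because their reads were far lower in adipocytes of IRF3 knockout mice than in adipocytes of WT mice. They were chosen by their read levels in FI3KO against WT TRAP, so the levels in that comparison are given as a description, with no test. All 6 were among the 13624 genes tested there, and 3 of the 6 were among the 16105 genes tested in the second experiment, which did not enter the choice. IRF3 is a transcription factor of innate immunity, and the study asked which genes lie downstream of it in adipocytes.

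In the first experiment, RNA on ribosomes was pulled down by TRAP (translating ribosome affinity purification) from epididymal white fat (eWAT) of C57BL/6 mice that had received a high-fat diet for 8 weeks at thermoneutrality. The WT group consisted of Ad-NuTRAP mice (6 libraries) and the FI3KO group of FI3KO-Ad-NuTRAP mice (6 libraries), which lack IRF3 in adipocytes. Both groups carried the NuTRAP allele, which makes a GFP-tagged ribosomal protein where Cre is active, and Adipoq-Cre is the only Cre line that the study's methods name. For its high-fat diet studies the paper's methods name male mice that began the diet at 8 weeks of age, and nothing further is given for the TRAP mice. In the second experiment, stromal-vascular fraction (SVF) cells from inguinal fat of IRF3-2D mice were differentiated into adipocytes and transduced with an AAV, which carried GFP alone in WT (3 libraries) and GFP with Cre in FI3OE (3 libraries). IRF3-2D is a constitutively active form of IRF3, and the WT cells carried its allele unrecombined, so FI3OE cells had received Cre as well as gaining IRF3-2D. Each library is labelled a biological replicate, with nothing on the animals or cultures behind it, and p-values therefore measure the spread between these libraries.

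The genes belong to unrelated families. Tph2 encodes tryptophan hydroxylase 2, the enzyme that starts serotonin synthesis and is known mainly from neurons, and Gpr50 encodes an orphan receptor related to the melatonin receptors. Ccn5 (formerly Wisp2) encodes a secreted matricellular protein of the CCN family that is made by cells of the adipose lineage, Car12 a membrane-bound carbonic anhydrase whose active site faces the outside of the cell, Mfsd7a (also Slc49a3) a membrane protein of the major facilitator superfamily, and Gm48795 a long non-coding RNA without a known role.

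Libraries held between 21541334 and 40490283 reads. A coding Irf3 transcript of 1429 nt was at 0 reads throughout FI3KO and at 163.6 to 388.1 estimated reads in WT TRAP. Other Irf3 transcripts kept reads in FI3KO, among them coding ones of 1712 nt, at 81.67 to 132.9 reads in FI3KO and 0 to 175.4 in WT, and of 369 nt, at 89.95 to 175.3 reads in FI3KO and 0 to 7.65 in WT. Over the whole gene Irf3 had 15.5 ± 2.2 CPM in FI3KO and 20.4 ± 2.1 CPM in WT TRAP (SD, n = 6 each), a difference of -0.35 on the log2 scale (adjusted p = 0.0198 in edgeR), short of the study's cutoff of 1. On the length-scaled TPM the order was the opposite, with 69.7 ± 14.5 TPM in FI3KO and 44.4 ± 3.4 TPM in WT. The adipocyte hormone gene Adipoq ranged from 1614 to 3835 CPM (read counts scaled to the same library total) over the 12 TRAP libraries, and each of 12 adipocyte markers had reads. By both cutoffs 1 of the 12, the leptin gene Lep, was lower in FI3KO (log2 fold change -1.63, adjusted p = 1.0e-04 in edgeR), with 2400 to 3910 CPM in FI3KO and 6620 to 13300 CPM in WT, and 1, the adipsin gene Cfd, was higher (1.83, adjusted p = 0.00476). The difference in Cfd came from replicates 3 to 6, with 2380 to 3490 CPM in FI3KO and 318 to 512 CPM in WT. In replicates 1 and 2 Cfd had 1320 to 1410 CPM in FI3KO and 1270 to 1310 CPM in WT. WT TRAP replicates 1 and 2 were closer to each other than any other pair of WT TRAP libraries, with a chi-square of 2.43 per gene against 8.38 to 134.3. The lowest value of an SVF pair was 3.81 and that of an FI3KO TRAP pair 15.9. The 2 libraries differed by more than sampling noise and were kept as 2, as labelled, but this does not show that they came from 2 animals. In FI3KO, replicates 1 and 2 stood apart from replicates 3 to 6, with 114.2 to 274.4 between the sets and 15.9 to 85.19 within them. In WT these values were 76.3 to 134.3 between the sets and 8.38 to 130.1 among replicates 3 to 6, which were thus not 1 close group. The labels do not call these sets batches, and values are given for each. The summed level of 15 macrophage markers ran from 39.4 to 40.3 CPM in WT replicates 1 and 2, from 75.0 to 113.7 CPM in WT replicates 3 to 6, from 36 to 46.5 CPM in FI3KO replicates 1 and 2 and from 16.7 to 18.7 CPM in FI3KO replicates 3 to 6. In bulk samples such as these, fewer cells of a type and less RNA per cell cannot be told apart.

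In every library of FI3KO the level of each of the 6 genes was below that of every WT library. Of all genes tested, 9.82% had this order, and 4.87% were lower in FI3KO by both cutoffs used in the study, a log2 fold change of at least 1 and an adjusted p of at most 0.05 in edgeR. Nothing follows from the count for the 6 genes, since this contrast chose them. By size of fall, Gm48795 was in position 2 of all genes tested, Tph2 in position 3 and Gpr50 in position 6, while Ccn5 was in position 42. Car12, in position 179, and Mfsd7a, in position 333, were not among the largest falls. Among the 664 genes that were lower by both cutoffs, whose median log2 fold change was -1.54, Car12 at -1.92 was in position 176 and Mfsd7a at -1.56 in position 322. The 10 largest falls were those of Mrgprf, Gm48795, Tph2, Otop1, S100a8, Gpr50, Ccl2, Slc38a3, Mstn and Amd2, with log2 fold changes from -4.87 to -3.91.

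**Figure D1:**
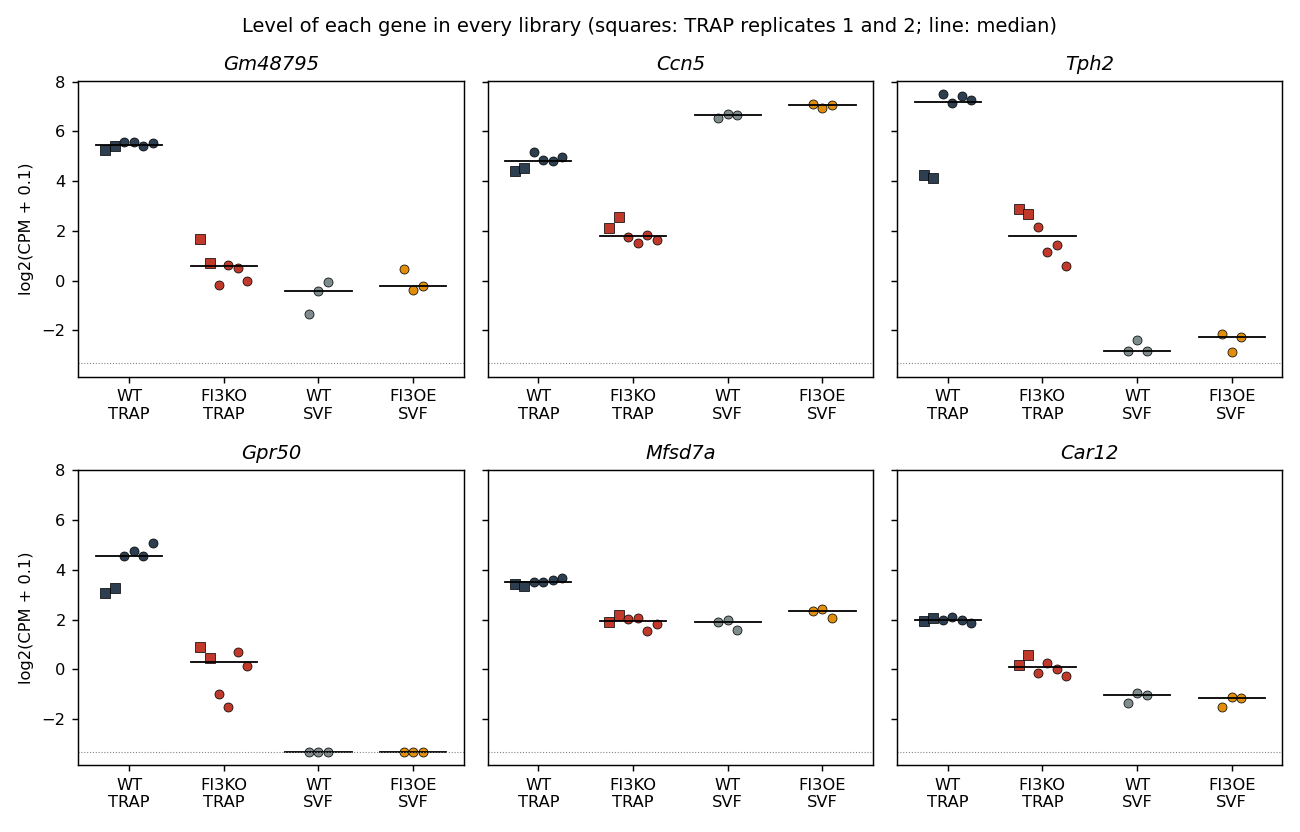
Level of each of the 6 genes in all 18 libraries, as log2 of CPM with 0.1 added (vertical axis), by group (horizontal axis). Squares are TRAP replicates 1 and 2, circles all other libraries, bars the group medians and the dotted line the value of a library without reads. In each panel the 6 FI3KO TRAP libraries lie below the 6 WT TRAP libraries, and WT replicates 1 and 2 lie apart from the others for Tph2 and Gpr50.

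Per length of transcript, the order of the genes in WT TRAP was Tph2 (86.4 ± 56.9 TPM), Gm48795 (80.3 ± 7.9 TPM), Ccn5 (46.3 ± 8.9 TPM), Gpr50 (14.7 ± 7.3 TPM), Mfsd7a (8.89 ± 0.72 TPM) and Car12 (2.09 ± 0.49 TPM; SD, n = 6 each). TPM is a level scaled by transcript length and is used here to compare genes, and WT TRAP with WT SVF-derived adipocytes. The ranges of Tph2 and Gm48795 overlapped, as did those of Gpr50 and Mfsd7a, and the other neighbours in this order were separate. The order differed between the sets. In WT replicates 1 and 2 it was Gm48795 (73.7 TPM), Ccn5 (36.9 TPM), Tph2 (13.9 TPM), Mfsd7a (8.11 TPM), Gpr50 (5.93 TPM) and Car12 (2.56 TPM), and in replicates 3 to 6 Tph2 came first (122.7 TPM) and Gpr50 (19.1 TPM) stood above Mfsd7a (9.28 TPM). In FI3KO the order was Ccn5 (5.80 ± 1.67 TPM), Tph2 (3.01 ± 1.75 TPM), Mfsd7a (2.86 ± 0.43 TPM), Gm48795 (2.76 ± 1.48 TPM), Gpr50 (0.80 ± 0.56 TPM) and Car12 (0.50 ± 0.10 TPM; SD, n = 6 each). There Tph2, Mfsd7a and Gm48795 differed by less than their SD.

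Tph2 (ENSMUSG00000006764) lies on chromosome 10 of GRCm38, 115078641 to 115185022, on the minus strand. Its level in WT TRAP was lowest at 17.4 CPM, had a median of 147.4 CPM and was highest at 179.3 CPM. The low values were those of replicates 1 and 2, with 19.1 and 17.4 CPM, and replicates 3 to 6 ran from 139.4 to 179.3 CPM. In FI3KO the lowest value was 1.41 CPM, the median 3.45 CPM and the highest 7.21 CPM, and here replicates 1 and 2 were the highest of the 6. The fitted log2 fold change was -4.79 (standard error 0.67), a level 27.6-fold lower in FI3KO. It depended on the replicates more than that of any other of the 6 genes. WT exceeded FI3KO 2.69-fold in replicates 1 and 2 and 62.3-fold in replicates 3 to 6.

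Within WT, the mean of Tph2 in replicates 3 to 6 was 8.88-fold that in replicates 1 and 2, which was the 13th largest difference between these sets among the 13624 genes, in either direction. Within FI3KO its mean was 2.61-fold higher in replicates 1 and 2. The sum of the macrophage markers given above was likewise highest in WT replicates 3 to 6 and lowest in FI3KO replicates 3 to 6, with overlapping ranges of FI3KO and WT in replicates 1 and 2, where Tph2 was separate. Of the 15 markers 13 were tested, with 11 lower and 1 higher in FI3KO by both cutoffs. Their part in the levels of Tph2 was not tested. Among the 10 largest falls the step went either way. Otop1 and Ccl2 were also higher in WT replicates 3 to 6, at 13.3 to 17.2 CPM and 33.0 to 41.8 CPM, than in WT replicates 1 and 2, at 2.75 to 3.59 CPM and 5.98 to 6.7 CPM, whereas Mrgprf, the largest fall, was lower in WT replicates 3 to 6, at 1.19 to 1.5 CPM, than in WT replicates 1 and 2, at 8.1 to 8.44 CPM. All reads of Tph2 were on the coding transcript of 2626 nt with 11 exons, and none were on the other annotated transcript, of 293 nt.

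Of the other genes of serotonin synthesis, the other hydroxylase, the decarboxylase and the transporter of the cell membrane were scarce in the same libraries, as was Gch1, which starts the synthesis of the hydroxylase's cofactor tetrahydrobiopterin, while 4 other genes of that cofactor were not. Tph1, the hydroxylase of peripheral tissues, averaged 0.0041 CPM in FI3KO and 0 CPM in WT TRAP, and Ddc, the decarboxylase that completes the synthesis, averaged 0 CPM in FI3KO and 0.024 CPM in WT TRAP. Slc6a4, the serotonin transporter, averaged 0.027 CPM in FI3KO and 0.044 CPM in WT TRAP. Gch1 averaged 0.429 CPM in FI3KO and 0.583 CPM in WT TRAP. Qdpr, Spr, Pcbd1 and Pts, which make or recycle tetrahydrobiopterin, averaged 79.0, 32.8, 32.2 and 17.5 CPM in WT TRAP, and the vesicular transporter gene Slc18a2 averaged 2.47 CPM. Among the 13 genes of serotonin synthesis and breakdown, 9 besides Tph2 were tested in TRAP. None of them passed both cutoffs in edgeR, and 4 had an adjusted p of at most 0.05, as did 37.4% of all genes tested. The median log2 fold change of these 9 genes was -0.20, against 0.02 over all genes tested. Maoa, which degrades serotonin, stood at -0.50 on the log2 scale (SE 0.093, edgeR adjusted p = 0.00157), while Maob had 0.10 (adjusted p = 0.51). Pcbd1 was also lower in FI3KO, at -0.35 (adjusted p = 0.007), and Pts and Qdpr were higher, at 0.56 (adjusted p = 0.00398) and 0.21 (adjusted p = 0.0312). Of 14 serotonin receptor genes 5 had no read in any TRAP library, and the sum of all 14 was at most 0.816 CPM in a TRAP library. Of 10 neuron and Schwann cell markers 4 were tested, and none passed both cutoffs. Among the defining markers of neurons, Tubb3 averaged 0 CPM in FI3KO and 0.021 CPM in WT TRAP and Rbfox3 averaged 0.0041 and 0.0055 CPM, whereas Syp, a synaptic vesicle gene, averaged 63.4 CPM in FI3KO and 105 CPM in WT (log2 fold change -0.68, adjusted p = 3.57e-04 in edgeR). Of the glial markers, Mbp averaged 73.6 CPM in FI3KO and 59.2 CPM in WT (log2 fold change 0.36, adjusted p = 0.00595) and S100b had a log2 fold change of 0.25 (adjusted p = 0.307). The sum of the 10 markers ran from 128.6 to 154.9 CPM in FI3KO and from 158.3 to 181.1 CPM in WT, and the part of such cells in the levels of Tph2 was not tested.

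Gpr50 (ENSMUSG00000056380) lies on chromosome X, 71663667 to 71669257, on the plus strand. WT TRAP libraries ran from 8.23 CPM through a median of 23.7 CPM to 33.4 CPM, and FI3KO libraries from 0.25 CPM through a median of 1.12 CPM to 1.74 CPM, from between 8 and 62 reads. As for Tph2, WT replicates 1 and 2 were the lowest of the WT group, at 8.23 and 9.62 CPM, and replicates 3 to 6 lay between 23.6 and 33.4 CPM. The fitted log2 fold change was -4.27 (standard error 0.46), a level 19.3-fold lower in FI3KO. WT exceeded FI3KO 5.95-fold in replicates 1 and 2 and 33.8-fold in replicates 3 to 6. The coding transcript of 3069 nt with 2 exons held 98.8% of the reads in WT and 98.7% in FI3KO. The true melatonin receptor genes, Mtnr1a and Mtnr1b, had no read in any of the 18 libraries. Of the enzymes of melatonin synthesis, Aanat averaged at most 0.052 CPM in a TRAP group and Asmt had no read in TRAP, so that Gpr50 was the only one of these 5 genes that could be tested.

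Ccn5 (ENSMUSG00000027656) lies on chromosome 2, 163820861 to 163833146, on the plus strand. In WT TRAP its level ran from 21.4 CPM through a median of 28.1 CPM to 36.2 CPM. In FI3KO it ran from 2.78 CPM through a median of 3.35 CPM to 5.83 CPM. The lowest WT library exceeded the highest FI3KO library 3.67-fold. The fitted log2 fold change was -2.85 (standard error 0.19), with WT 4.42-fold above FI3KO in replicates 1 and 2 and 9.96-fold above it in replicates 3 to 6. Markers of fibroblasts and adipocyte progenitors were lower beside it in part. Of 12 such markers 11 were tested, with Col1a1 (-1.82), Dpp4 (-1.50) and Mfap5 (-1.10) lower and Dcn (1.36) higher in FI3KO by both cutoffs. The other tested markers passed in neither direction, among them Pdgfra (-0.13), Cd34 (-0.07) and Col3a1 (-0.17), and the median of the 11 was -0.25. The sum of the 12 markers ran from 979 to 1030 CPM in FI3KO and from 975.8 to 981.9 CPM in WT in replicates 1 and 2, where Ccn5 was separate. In replicates 3 to 6 it ran from 545.6 to 938.1 CPM in FI3KO and 1558 to 2207 CPM in WT. Most of this sum was Col1a1, with means of 271 CPM in FI3KO and 1010 CPM in WT, and Col3a1, with 473 and 552 CPM. Of 8 smooth muscle and pericyte markers 7 were tested, and Tagln (-1.60) and Acta2 (-1.18) were lower by both cutoffs. The median of the 7 was -0.26, and Rgs5 (0.50), Notch3 (0.28) and Mcam (0.18) went the other way without passing the cutoffs. The part of such cells in the fall of Ccn5 in replicates 3 to 6 was not tested. The coding transcript of 1719 nt with 5 exons held 95.6% of the reads in WT and 96.6% in FI3KO.

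Of the 6 CCN genes 3 were tested in TRAP. Beside Ccn5, Ccn1, an early-response matricellular gene, was lower in FI3KO by both cutoffs (log2 fold change -1.29, standard error 0.45, adjusted p = 0.0372 in edgeR). That difference came from replicates 3 to 6, with 48.7 to 131.0 CPM in FI3KO and 238.0 to 330.0 CPM in WT. In replicates 1 and 2 the order was the opposite, with 65.4 to 71.3 CPM in FI3KO and 47.4 to 49.5 CPM in WT. Ccn2 had a log2 fold change of -0.30 (adjusted p = 0.645), and its order also turned, with 1.7 to 3.38 CPM in FI3KO and 0.797 to 0.817 CPM in WT in replicates 1 and 2, and 0.557 to 1.44 CPM in FI3KO and 1.63 to 3.69 CPM in WT in replicates 3 to 6. Ccn3 and Ccn4 averaged at most 0.188 CPM in a TRAP group. The Ccn5 levels in FI3KO and WT were separate in both sets of replicates.

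Car12 (ENSMUSG00000032373) lies on chromosome 9, 66713686 to 66766845, on the plus strand. It was the least abundant of the genes in WT TRAP, at 3.58 to 4.20 CPM (median 3.86 CPM). In FI3KO it had 0.74 to 1.39 CPM (median 0.97 CPM), within the range of Gpr50 (0.25 to 1.74 CPM). These values rest on 99 to 156 reads in WT and 22 to 43 in FI3KO. The WT libraries were close to one another, and replicates 3 to 6 of WT were 0.98-fold replicates 1 and 2. The fitted log2 fold change was -1.92 (standard error 0.16), with WT 3.27-fold above FI3KO in replicates 1 and 2 and 4.37-fold in replicates 3 to 6. Salmon divided the reads between coding transcripts of 3716 and 3639 nt, with the latter at 0 reads in 3 FI3KO libraries and 4 WT libraries, so only the sum over the gene was used.

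Among 16 carbonic anhydrase genes, 6 besides Car12 were tested in TRAP, with log2 fold changes from -0.51 (Car7) to 0.42 (Car1) and adjusted p-values of at least 0.07 in edgeR, and 1 of them, Car3, was under 0.05 before adjustment. Car3, the abundant cytosolic enzyme of adipocytes, averaged 19900 CPM in FI3KO and 15500 CPM in WT (log2 fold change 0.40, adjusted p = 0.07 in edgeR). Its direction turned between the sets, with 14900 to 17600 CPM in FI3KO and 20300 to 20400 CPM in WT in replicates 1 and 2, and 20400 to 23200 CPM in FI3KO and 11300 to 14500 CPM in WT in replicates 3 to 6. Car5b, a mitochondrial enzyme, had a log2 fold change of 0.16 (adjusted p = 0.316). Of 14 genes of acid-base transport 10 were tested. The sodium bicarbonate cotransporter gene Slc4a4 was higher in FI3KO by both cutoffs (log2 fold change 1.05, standard error 0.22, adjusted p = 0.00338), and its relative Slc4a7 had a log2 fold change of -0.84 (adjusted p = 4.32e-04), short of the fold-change cutoff.

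Mfsd7a (ENSMUSG00000029490) lies on chromosome 5, 108441054 to 108448891, on the minus strand. Its level ran from 10.1 to 12.6 CPM in WT TRAP (median 11.4 CPM) and from 2.84 to 4.51 CPM in FI3KO (median 3.78 CPM). The replicate sets differed little, with means of 10.3 and 11.9 CPM in WT and of 4.06 and 3.58 CPM in FI3KO for replicates 1 and 2 and replicates 3 to 6. The fitted log2 fold change was -1.56 (standard error 0.11), the smallest of the 6, and WT exceeded FI3KO 2.55-fold in replicates 1 and 2 and 3.32-fold in replicates 3 to 6. The other 3 genes of the SLC49 family were tested as well, and none passed both cutoffs. Flvcr2 stood at 0.93 on the log2 scale (SE 0.32, edgeR adjusted p = 0.0369), Dirc2 at 0.23 (adjusted p = 0.0311) and Flvcr1, a heme exporter, at -0.10 (adjusted p = 0.502).

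Gm48795 (ENSMUSG00000114117) is annotated as a lincRNA of 1161 nt with 2 exons on chromosome 13, 62813969 to 62815523, on the minus strand. WT TRAP libraries ran from 38.3 CPM through a median of 44.2 CPM to 47.8 CPM, and FI3KO libraries from 0.78 CPM through a median of 1.39 CPM to 3.13 CPM. The fitted log2 fold change was -4.82 (standard error 0.25), a level 28.2-fold lower in FI3KO. WT exceeded FI3KO 17.3-fold in replicates 1 and 2 and 41-fold in replicates 3 to 6. The lowest WT library was 12.2-fold above the highest FI3KO library, the widest gap of the 6 genes.

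The identity of these reads is uncertain. Its reverse complement matched the 3288 nt transcript of malic enzyme 1 on chromosome 9, over 1153 bases with 1144 identities (99.2%) and 9 mismatches, and with 6 bases of Me1 missing. The match covers positions 1101 to 2259 of that transcript, whose coding part ends at position 1919. Of the 1131 runs of 31 bases in Gm48795, 93.0% occur in transcripts of other genes, against 0% for the coding transcripts of the other 5 genes. The locus overlaps Gm7049, a processed pseudogene on the opposite strand from 62813076 to 62814787, which had no entry in the tables. The Nextera XT libraries do not mark strand, so reads of Gm48795, of its antisense partner and of Me1 can be divided only where the sequences differ. The coding stretch of Me1 with the most mismatches, at positions 1698 to 1818, is shown to make this visible, beside the reverse complement of positions 444 to 564 of Gm48795. Both are from GENCODE M21 and are written 5′ to 3′, and capitals mark the 3 bases that differ.
Me1, coding strand: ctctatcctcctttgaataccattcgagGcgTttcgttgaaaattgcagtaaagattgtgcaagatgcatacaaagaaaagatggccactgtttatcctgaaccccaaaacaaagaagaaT
Gm48795, reverse complement: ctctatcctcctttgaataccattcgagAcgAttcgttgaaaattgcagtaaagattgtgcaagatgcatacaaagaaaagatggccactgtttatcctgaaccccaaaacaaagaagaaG

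Me1, which supplies NADPH for fatty acid synthesis, was abundant in all groups, at 785.6 ± 55.4 CPM in WT TRAP and 945.9 ± 148.7 CPM in FI3KO (SD, n = 6 each). Its log2 fold change was 0.32 (adjusted p = 0.0253 in edgeR), in the direction opposite to that of Gm48795. In replicates 1 and 2 Me1 averaged 1075 CPM in FI3KO and 716.9 CPM in WT. In replicates 3 to 6 it averaged 881.5 CPM in FI3KO and 820.0 CPM in WT, and the ranges overlapped (757.3 to 1014 and 797.5 to 845.4 CPM). Of the reads given to either gene, Gm48795 held between 5.03% and 5.62% in each WT TRAP library and between 0.078% and 0.288% in each FI3KO library. In the SVF-derived adipocytes it held between 0.038% and 0.141%, in WT as in FI3OE. The share in WT TRAP was thus narrow and separate from that in the other 3 groups. Whether Gm48795, the pseudogene or a form of Me1 gave these reads was not tested. The nearest tested genes on either side were Gm5141 (62772200 to 62785808), with a log2 fold change of 0.09 (adjusted p = 0.861), and Fbp2 (62836877 to 62858422), a muscle-type fructose bisphosphatase gene, with -1.11 (standard error 0.19, adjusted p = 9.08e-04) and a mean of 0.81 CPM in FI3KO and 1.82 CPM in WT. Within 100 kb of the 6 genes 14 neighbours were tested in all, of which 1, Fbp2, was lower and 1, Gm42517 near Mfsd7a, was higher by both cutoffs. Both were chosen for mention after their values were seen.

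**Figure D2:**
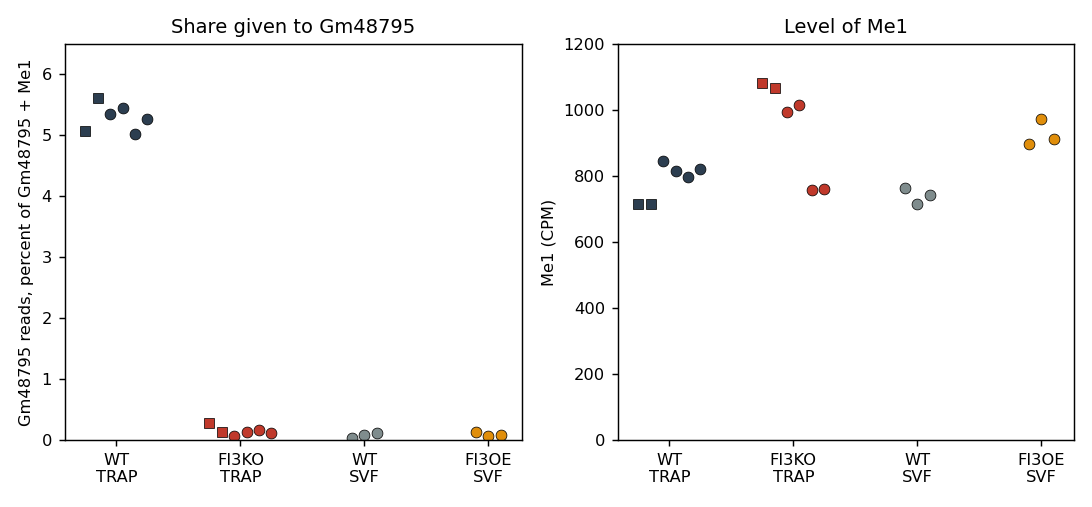
Left, reads given to Gm48795 as a percentage of the reads given to Gm48795 and Me1 together, and right, the level of Me1 in CPM (vertical axes), for every library by group (horizontal axes), with TRAP replicates 1 and 2 as squares. The WT TRAP libraries lie between 5.03% and 5.62% and all other libraries at or below 0.288%, while Me1 lies between 716.4 and 1081 CPM throughout.

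The mean level of each of the 6 genes was lower in FI3KO than in WT in replicates 1 and 2 taken alone and in replicates 3 to 6 taken alone. Among all genes, 0.527% were lower by both cutoffs in the former, 9.6% in the latter and 0.327% in both. These shares are for a stricter condition than a lower mean, whose share among all genes is not given. The choice of the 6 genes used these libraries, so no call by the cutoffs is given for them and their levels are a description. The difference was larger in replicates 3 to 6 for each of the 6 genes. The size of the step between the sets within WT divided them, with Tph2 and Gpr50 at one end and Mfsd7a, Gm48795 and Car12 at the other. In log2 terms WT replicates 3 to 6 exceeded WT replicates 1 and 2 by 3.14 for Tph2 and by 1.58 for Gpr50, a step exceeded in size by 0.0881% and 1.58% of the genes tested. The step was 0.48 for Ccn5, 0.20 for Mfsd7a, 0.17 for Gm48795 and -0.03 for Car12. Within FI3KO the order was another, and replicates 3 to 6 were below replicates 1 and 2 for each gene, by -1.35 for Tph2, -1.0 for Gm48795, -0.84 for Gpr50, -0.67 for Ccn5, -0.41 for Car12 and -0.17 for Mfsd7a. Adipoq went the other way in WT, with means of 3187 CPM in replicates 1 and 2 and 1807 CPM in replicates 3 to 6, and its means in FI3KO were 2373 and 3254 CPM.

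**Figure D3:**
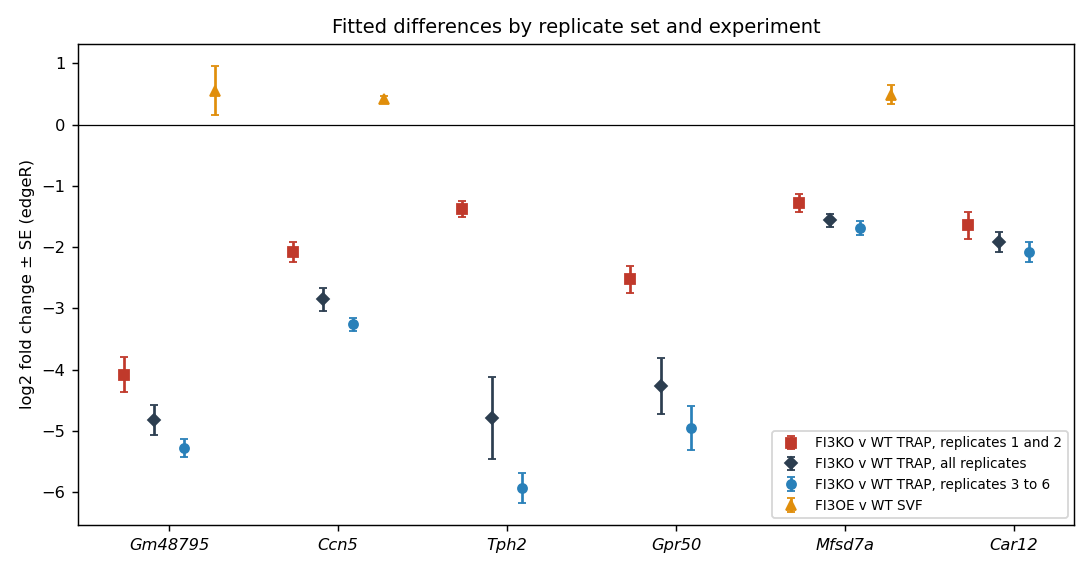
Log2 fold changes with standard errors from edgeR (vertical axis) for each gene (horizontal axis), for FI3KO against WT TRAP in replicates 1 and 2 (squares), in all replicates (diamonds) and in replicates 3 to 6 (circles), and for FI3OE against WT SVF-derived adipocytes (triangles). In TRAP the values of Tph2 run from -1.37 to -5.93 and those of Mfsd7a from -1.28 to -1.69, and the 3 genes tested in SVF-derived adipocytes lie between 0.42 and 0.56.

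The genes with the pattern most like each of the 6 were found by Pearson's r of log2 CPM over the 12 TRAP libraries, among 11956 genes with a mean of at least 1 CPM. These libraries fall into 2 groups and 2 sets of replicates, which all genes share, so a high r is a description of that division. For Tph2 they were Slc41a2 (r = 0.995), Pfkl and Ugt3a2. For Gpr50 they were Nek9 (r = 0.988), Ffar2 and Slc38a10, whose log2 fold changes lay between -0.42 and -0.15. For Ccn5 they were Lamb3 (r = 0.994), Cds1 and Gtse1. Ass1, the argininosuccinate synthase gene, came first for Mfsd7a (r = 0.985) and for Car12 (r = 0.988), and had a log2 fold change of -3.33. Gm48795 and Car12 were each in the 3 nearest of the other (r = 0.983), and Srp54a came first for Gm48795 (r = 0.986).

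The second experiment was used here to ask whether constitutively active IRF3 changed the same genes in SVF-derived adipocytes. Of the 16105 genes tested there, 3.62% passed both cutoffs in either direction, and none of the 3 tested genes, Ccn5, Mfsd7a and Gm48795, was among them. By the adjusted p alone, 20.2% of all genes were higher in FI3OE, and 2 of the 3 were, Ccn5 and Mfsd7a. For Irf3 itself the level was 57.5 ± 1.0 CPM in WT and 94.4 ± 5.2 CPM in FI3OE (SD, n = 3), and the adjusted p in edgeR was 3.3e-07 at 0.73 on the log2 scale.

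Ccn5 had 136.5, 122.3 and 133.9 CPM in the FI3OE libraries and 93.0, 104.7 and 100.1 CPM in the WT libraries. Each FI3OE library exceeded each WT library, an order that 24.1% of all genes showed. Its log2 fold change was 0.42 (standard error 0.053, adjusted p = 8.95e-05 in edgeR), a level 1.33-fold higher in FI3OE, and the two-sided exact permutation test gave p = 0.1, the smallest that 3 against 3 libraries allow. In a fit of all 18 libraries, which shares its estimate of the spread with TRAP, the log2 fold change was again 0.42 but the adjusted p was 0.219 in edgeR, and the call was lost. Of the 6 CCN genes 5 were tested in these cells, and all 5 had an adjusted p of at most 0.05 and were higher in FI3OE, none by both cutoffs, with a median log2 fold change of 0.44 against -0.0047 over all genes. Ccn2, a target of mechanical and TGF-beta signals, had the largest value at 0.87 (adjusted p = 6.08e-06).

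Mfsd7a had 5.03, 5.32 and 4.14 CPM in FI3OE and 3.68, 3.85 and 2.87 CPM in WT. The groups were separate by a small margin. The log2 fold change was 0.49 (standard error 0.16, adjusted p = 0.0276 in edgeR; two-sided exact permutation p = 0.1). The adjusted p was 0.0684 without FI3OE replicate 1, 0.102 without FI3OE replicate 2 and 0.102 without WT replicate 3. It was 0.0846 with an offset for transcript length and 0.0622 in the fit of all 18 libraries. Under each of these the adjusted p no longer passed, while the log2 fold change was 0.47, 0.41, 0.38, 0.48 and 0.50, in this order. In the fit of the 6 SVF libraries Flvcr1 and Flvcr2 of the SLC49 family had log2 fold changes of -0.36 (adjusted p = 0.00922) and -0.69 (adjusted p = 0.0132).

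Gm48795 had 1.27, 0.66 and 0.76 CPM in FI3OE and 0.29, 0.65 and 0.87 CPM in WT, from 7 to 30 reads a library, and the groups overlapped. The log2 fold change was 0.56 with a standard error of 0.40 (adjusted p = 0.311 in edgeR; two-sided exact permutation p = 0.4). Car12 had 6 to 13 reads in an FI3OE library and 7 to 10 in a WT library, which is 0.33 ± 0.06 CPM and 0.37 ± 0.07 CPM (SD, n = 3 each; two-sided exact permutation p = 0.5), and it was too low for the fit. Tph2 had 1 to 4 reads in each FI3OE library and 1 or 2 in each WT library. Gpr50 had no read in any of the 6 libraries, which allows at most 0.081 to 0.127 CPM in FI3OE and 0.118 to 0.139 CPM in WT at 3 reads a library. Such limits cover counting error only, since PCR copies of 1 molecule can be counted more than once. For Tph2 and Gpr50 no fold was formed.

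Set beside each other, the levels in WT TRAP and WT SVF-derived adipocytes differed in both directions. Ccn5 was at 46.3 ± 8.9 TPM in WT TRAP (n = 6) and 155.7 ± 10.3 TPM in WT SVF-derived adipocytes (n = 3), the only one of the 6 genes that was higher in culture, by 3.36-fold. Mfsd7a was 3.48-fold, Car12 12.5-fold and Gm48795 75.5-fold higher in WT TRAP. Tph2 and Gpr50 were high in WT TRAP and at or below the limit of detection in culture. Fat depot, diet, culture, TRAP against whole-cell RNA and the IRF3-2D allele differ together between these groups, and their parts cannot be told apart. The 15 macrophage markers summed to 2560 to 2732 CPM in WT SVF-derived adipocytes, against at most 113.7 CPM in a TRAP library. The 12 fibroblast and adipocyte progenitor markers summed to 14020 to 14400 CPM there and to 976 to 2207 CPM in WT TRAP. Most of the sum in culture was Col1a1 and Col3a1, with means of 6840 and 5930 CPM. Dpp4 of the same list was lower in culture, at 0.75 CPM against 4.44 CPM in WT TRAP. The part of either kind of cell in the levels of the 6 genes was not tested.

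Interferon-stimulated genes, the genes for which IRF3 is best known, are given for comparison. In TRAP, 15 of 20 were tested and 1, Zbp1 (log2 fold change -1.19, adjusted p = 0.00295 in edgeR), was lower in FI3KO by both cutoffs, with a median of -0.15 over the 15. In SVF-derived adipocytes 18 were tested and 16 were higher in FI3OE by both cutoffs, with a median of 1.65. The 3 tested genes of the chosen 6 lay at 0.42 to 0.56 in the same fit. Of 11 feedback targets of Wnt signalling, to which the CCN family has been linked, 4 were tested in TRAP, with Nkd1 lower (log2 fold change -1.20, adjusted p = 3.6e-04) and Axin2 higher (1.00, adjusted p = 0.022) in FI3KO.

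Promoters were at hand for 4 of the 6 genes, as windows of 250 bases before the transcription start from RefSeq on GRCm38.p6. They are shown because these genes were low together in FI3KO. They were searched on both strands for AANNGAAA (the core of the element that IRF factors bind), TTGCNNAA (C/EBP), TATAAA (the box bound by TBP) and CCAAT (the box bound by NF-Y). No match overlapped a match of another of these. Each sequence is written 5′ to 3′ on the gene's strand, with matches in capitals. The window of Tph2 is chr10:115185023-115185272 (minus strand), that of Gpr50 chrX:71663417-71663666 (plus), that of Mfsd7a chr5:108449101-108449350 (minus) and that of Car12 chr9:66713436-66713685 (plus).
Tph2: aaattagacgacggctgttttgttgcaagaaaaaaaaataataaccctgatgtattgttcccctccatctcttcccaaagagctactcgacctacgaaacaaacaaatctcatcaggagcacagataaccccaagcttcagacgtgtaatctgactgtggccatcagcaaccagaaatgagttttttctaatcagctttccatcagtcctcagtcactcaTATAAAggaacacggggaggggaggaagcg
Gpr50: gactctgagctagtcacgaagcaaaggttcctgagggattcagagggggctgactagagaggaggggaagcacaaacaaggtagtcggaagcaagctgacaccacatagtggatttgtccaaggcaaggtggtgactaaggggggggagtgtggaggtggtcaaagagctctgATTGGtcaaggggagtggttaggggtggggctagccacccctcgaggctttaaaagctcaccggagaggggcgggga
Mfsd7a: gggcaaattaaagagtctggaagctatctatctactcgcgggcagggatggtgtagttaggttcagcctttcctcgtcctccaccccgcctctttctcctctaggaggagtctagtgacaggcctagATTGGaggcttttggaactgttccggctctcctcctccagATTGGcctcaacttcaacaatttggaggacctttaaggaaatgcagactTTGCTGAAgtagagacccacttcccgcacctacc
Car12: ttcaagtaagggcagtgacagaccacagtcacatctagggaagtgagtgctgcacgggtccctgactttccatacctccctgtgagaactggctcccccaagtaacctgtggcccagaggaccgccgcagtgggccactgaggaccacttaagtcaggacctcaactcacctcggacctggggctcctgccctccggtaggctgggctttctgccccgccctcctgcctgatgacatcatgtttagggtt

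AANNGAAA was not in any of the 4 windows and was in 21.3% of the 32851 windows of RefSeq promoters. Tph2 had 1 TATAAA, which 12.4% of all windows held. Mfsd7a had 1 TTGCNNAA, which 9.56% held, and 2 CCAAT, and Gpr50 had 1 CCAAT, which 33.8% held. Car12 had none of the 4. The motifs were chosen after the levels of these genes, and earlier motif searches in the same windows, had been seen. They are letters in a short window and say nothing on binding elsewhere.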

How the data were processed

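RNA from TRAP of eWAT adipocytes and from SVF-derived adipocytes was depleted of ribosomal RNA and made into unstranded Nextera XT libraries amplified for 12 cycles. The authors trimmed reads with bcl2fastq and fastp and ran Salmon 1.4.0 with sequence and GC bias correction on GENCODE M24 transcripts of GRCm38, 1 library per table. The deposited values are estimated counts (expected counts, not whole numbers), TPM and effective lengths per transcript. Here the 118733 transcripts were assigned to genes by GENCODE M21, of which 99.26% matched, estimated counts were summed per gene and rounded, and CPM was taken over each library's total. Other transcripts, with 0.375% to 1.08% of the reads, were kept as genes of their own.

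Each experiment was fitted alone in R 4.3.3 with edgeR 4.0.16 (filterByExpr, TMM, quasi-likelihood test, Benjamini-Hochberg adjustment over all genes tested), without covariates, with the study's cutoffs. Exact permutation tests on log2(CPM + 0.1) and the sequence searches were run in Python 3.11.15 with scipy 1.17.1. Members and gene lists were chosen with earlier results of these data known. Named genes are the members, their lists, the 3 most alike genes per member, the 10 largest falls, the neighbours of Gm48795, Irf3 and Adipoq. Me1, Gm42517 and single cell type markers fall outside this rule and were named after their values were seen. Alternatives were DESeq2's size factors and Wald test (DESeq2 1.42.0), other count filters, a length offset, a block for the replicate number, omission of each library, all 18 libraries in 1 fit, and the TRAP replicate sets apart or as a term. On simulated data with 200 genes changed by a log2 fold change of 1.5, the fit recovered 89.5% for TRAP (13624 genes, 13 false calls) and 91.5% for SVF (16105 genes, 22 false calls). These calls used an adjusted p of at most 0.05 alone. The simulated counts had no sets of replicates, unlike the TRAP libraries, so the false calls are not an error rate of the TRAP fit.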

Additional observations from a re-analysis of the deposited data

Results flagged for a closer look

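Gm48795 in FI3KO TRAP replicate 1 had 3.13 CPM, from 79 reads, while the other 5 FI3KO libraries lay between 0.777 and 1.55 CPM. Its gap to the nearest library was 0.673 of the group's range, above Dixon's 95% critical value for 6 libraries. Of 12 groups examined, 6 genes in FI3KO and in WT TRAP, 1 had such a library, and about 1 in 20 is found by chance. Without this library the log2 fold change of Gm48795 was -5.14 against -4.82 with it. Its place above the others does not change the order of the groups, and its cause was not tested.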

How the results depend on the processing

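In TRAP each of the 6 genes stayed lower in FI3KO under every alternative that gave it a value, with log2 fold changes from -5.28 to -4.08 for Gm48795, -3.26 to -2.08 for Ccn5, -5.93 to -1.37 for Tph2, -4.95 to -2.52 for Gpr50, -1.69 to -1.28 for Mfsd7a and -2.08 to -1.64 for Car12. These contrasts chose the genes. The ends of the ranges came from replicates 3 to 6 alone and from replicates 1 and 2 alone. A minimum of 10 counts in every library left out Gpr50. The number of genes past both cutoffs, 901 in TRAP, was 191 in replicates 1 and 2 alone, 1868 in replicates 3 to 6 alone, 574 with at least 10 counts in every library, 1355 in the fit of all 18 libraries, and 761 to 1115 when each library was left out in turn. In SVF-derived adipocytes it was 583, with 342 in the fit of all 18 libraries and 551 to 623 when each library was left out.

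In SVF-derived adipocytes the log2 fold change of Ccn5 was 0.42 in the fit of all 18 libraries, where its adjusted p in edgeR was 0.219, and 0.37 to 0.46 when each library was left out. That of Mfsd7a was 0.48 with the length offset and 0.50 in the 18-library fit (adjusted p = 0.0622), and 0.38 to 0.60 when each library was left out. Its adjusted p, from edgeR or DESeq2, ranged from 0.0169 to 0.102 over 13 alternatives. That of Gm48795 ranged from 0.159 to 0.706, with log2 fold changes of 0.22 to 0.94 when each library was left out. The cause of these shifts was not tested. Tph2, Gpr50 and Car12 were too low in these cells for the fit.

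The main fits did not pair libraries by replicate number. Deviations of same-numbered TRAP libraries correlated at -0.301 to 0.109, and those of SVF libraries at -0.0439 to 0.0172. The step between the replicate sets enters the TRAP values, and the SVF values rest on 3 libraries a group. Whether the numbers pair the samples is therefore not settled by them. With the replicate number as a block 736 genes passed in TRAP and 579 in SVF-derived adipocytes, and Mfsd7a had an adjusted p of 0.0177 and Ccn5 of 5.76e-04 in the latter. The depth, from 21541334 reads a library, limits what can be said of Tph2, Gpr50, Car12 and Gm48795 in SVF-derived adipocytes.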
